A study of Mus musculus with 32 samples.

Results

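Gene expression was compared between the 6 D2 arrays and the 10 R8 arrays of a set of 32 Illumina Mouse Ref8 v2 arrays, each hybridized with whole-brain RNA of 1 naïve male mouse. The arrays were taken by their strain labels and normalized together. A probe was tested where its detection p-value was under 0.01 on at least 6 of the 16 arrays. D2 is the inbred strain DBA/2J. R8 is a congenic strain with a 1.1 Mb segment of D2 distal chromosome 1 on the background of the inbred strain C57BL/6J (B6). Both strains therefore carry the D2 allele inside the R8 segment and differ elsewhere, on the rest of chromosome 1 and on all other chromosomes. The other 16 arrays come from 10 B6 mice and from 6 R2 mice, in which a 10.2 Mb B6 stretch of distal chromosome 1 sits on a D2 background. They serve here as a separate set of animals in which D2 and B6 backgrounds can be compared while both strains carry the B6 allele of that region. The mice were adult and of no finer stated age, the time of day of tissue harvest is not given in the sources used here, and each strain is an inbred line or 1 congenic line.

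D2 and B6 are old inbred strains whose genomes differ at very many sites, and their brains have long been compared for traits such as the severity of alcohol withdrawal. Variants in or near a gene can alter the RNA level of that gene (in cis), and variants in 1 gene can alter the levels of others (in trans). In a congenic strain, a short donor segment is moved onto the other background by repeated crossing, so that effects of the segment and of the background can be separated.

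Median bead signal over all probes ranged from 424.7 to 535 on the D2 arrays and from 380.2 to 566.3 on the R8 arrays. Between 11267 and 11949 probes were detected per D2 array and between 10944 and 12283 per R8 array. D2 replicate 1 stood apart from the other D2 arrays, with a median correlation of 0.980 to its own strain, against 0.988 to 0.991 for every other array of either strain. Counts that rest on it are also given without it. The first principal component of the tested probes, with 51.9% of the variance, separated the strains. The fold of any difference is limited by the signal over background, and the precision by the number of arrays. Of the markers fixed for neurons, 10 were tested and had closely similar mean log2 levels (14.54 to 14.64 on D2 arrays and 14.49 to 14.70 on R8 arrays), and of the 7 pituitary and pineal genes on the array only 1 was detected often enough to be tested.

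Of 11976 probes tested, 2009 (16.8%) differed between D2 and R8 at an adjusted p under 0.05 (limma with Benjamini-Hochberg adjustment over all probes tested), 958 higher (8%) and 1051 lower (8.78%) in D2. A probe that passes this test is called below. At an unadjusted p under 0.01, 2075 probes passed (17.3%). Taking 1 probe per gene, the tested probe with the highest mean level, 1575 of 9133 genes (17.2%) were called, 754 higher (8.26%) and 821 lower (8.99%). The median size of a called difference was 0.41 on the log2 scale, and the largest fitted one was 6.00. Small differences were spread evenly over both directions, whereas large ones were mostly lower in D2. More than 2-fold differences were called at 79 probes higher in D2 (0.66%) and 209 lower (1.75%). Beyond 4-fold the counts were 19 (0.159%) and 81 (0.676%), and beyond 8-fold 5 (0.0418%) and 37 (0.309%). These counts rest on fitted values, and at 25 of the 79 and 100 of the 209 probes beyond 2-fold the lower strain was detected on no array, so that the size there is not a measured fold. The detection filter also treats the directions unequally. A probe absent in D2 is tested if detected on 6 of the 10 R8 arrays, whereas one absent in R8 must be detected on all 6 D2 arrays. The share of this in the excess of large differences lower in D2 was not tested. At 843 probes (7.04%) no D2 array overlapped any R8 array, and of the genes 671 (7.35%) showed no overlap. The median difference over all tested probes was 0.02. Without D2 replicate 1, 1940 probes were called.

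The same probes were examined in R2 and B6, which share no array with D2 and R8. Of the 2009 called probes, 1970 were also tested there, and 1906 of these had the same direction. At 1438 of the 1970 (73.0%) the difference R2 minus B6 also passed an adjusted p of 0.05 in the same direction, and at 3 it passed in the opposite one. For comparison, 2495 of 11853 probes (21.0%) were called between R2 and B6 in all. Agreement rose with size. Among called probes with more than a 2-fold difference, 276 of 278 were also called in the same direction, and among those of 2-fold or less, 1162 of 1692 were. Shares were lower on distal chromosome 1, with 3 of 15 called in the same direction among called probes of the flanks and 0 of 3 among those of the R8 segment and its edge.

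**Figure D1:**
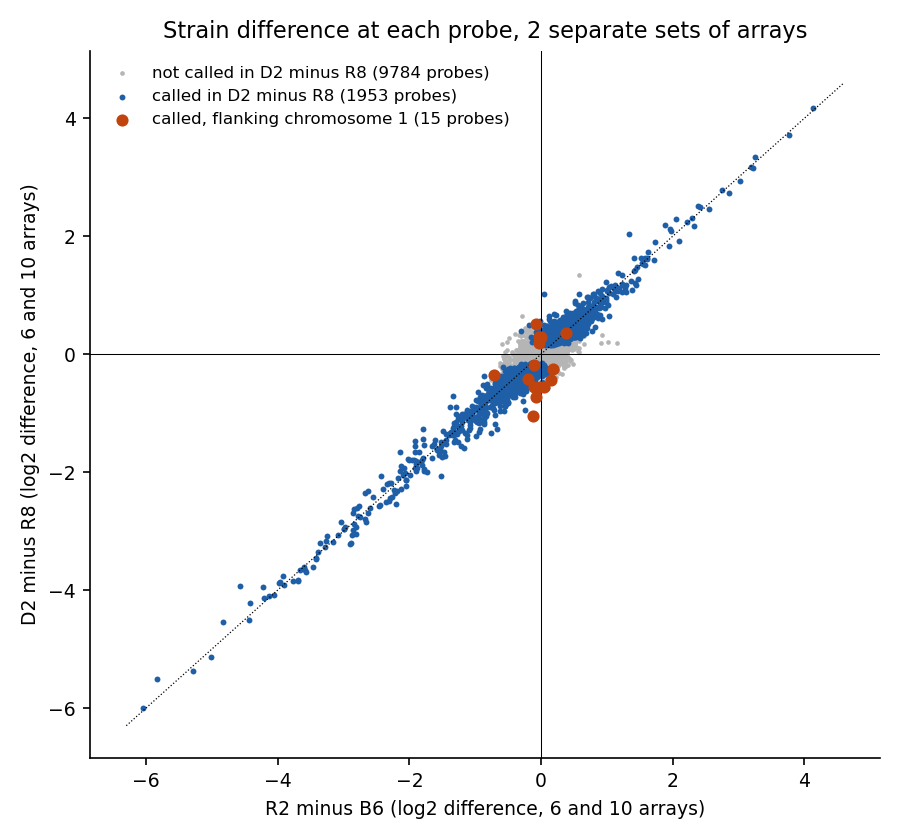
Each point is a probe tested in both comparisons, with the log2 difference R2 minus B6 on the horizontal axis and D2 minus R8 on the vertical axis and a dotted line at equal differences. The blue points, called between D2 and R8, lie along that line over the whole range, whereas the orange points, called probes of the chromosome 1 flanks, mostly lie near 0 on the horizontal axis.

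The genes with the smallest p among those lower in D2 included several with near-complete loss of signal. Thumpd1, which helps to acetylate transfer RNA (chromosome 7, 119715093 to 119723619 in GRCm38), had a lowest, median and highest log2 level of 5.71, 5.81 and 6.06 in D2 and of 11.72, 11.83 and 12.05 in R8. It was detected on 0 of 6 D2 and on 10 of 10 R8 arrays, and was at least 14.6-fold lower in D2, a bound set by the lowest signal that counts as detected on the D2 arrays. Abhd16a, a phospholipid hydrolase encoded within the major histocompatibility complex (chromosome 17, 35089234 to 35102987), ranged from 8.29 to 8.67 around a median of 8.46 in D2 and from 13.56 to 13.65 around 13.60 in R8. It remained detected on every D2 array and was 35.0-fold higher in R8 (log2 difference -5.13, standard error 0.055, adjusted p = 8.74e-23). Neither gene had any overlap of the strains.

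Psmb6, a catalytic subunit of the proteasome, had levels of 8.62, 8.78 and 9.07 in D2 (lowest, median, highest) and of 13.14, 13.34 and 13.45 in R8, a 22.9-fold difference. Prkag2, a regulatory subunit of the energy sensor AMP-activated protein kinase, was 12.3-fold higher in R8 and was also detected on all arrays of both strains. The others of the 12 were detected on no D2 array and on all 10 R8 arrays. They were Sspn (a membrane protein of the dystrophin complex, at least 8.48-fold lower in D2), Trim59 (a ubiquitin ligase, at least 9.84-fold), Znhit3 (at least 7.95-fold), Il17d (a cytokine, at least 4.07-fold), Rnf20 (a ubiquitin ligase for histone H2B, at least 3.95-fold), Slc22a4 (an ergothioneine transporter, at least 3.67-fold), Ctsc (the lysosomal protease cathepsin C, at least 3.16-fold) and Mcm6 (a subunit of the replicative helicase, at least 3.05-fold). All 12 were also called lower in R2 than in B6. No difference between the comparisons was called for any of them (smallest adjusted p = 0.594, for Rnf20).

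Among the genes higher in D2, Tmem87a, a Golgi membrane protein (chromosome 2, 120355309 to 120404154), had levels of 11.19, 11.24 and 11.48 in D2 and of 6.60, 7.09 and 7.39 in R8, where it was detected on none of the 10 arrays. It was at least 10.0-fold higher in D2. Slc7a14, a lysosomal member of the cationic amino acid transporter family (chromosome 3, 31202854 to 31310567), was 5.71-fold higher in D2 (12.23, 12.52 and 12.84 against 9.81, 9.97 and 10.21), and all 3 of its probes were called in that direction (log2 differences 2.51, 2.50 and 1.06). Alad, the second enzyme of heme synthesis (chromosome 4, 62505984 to 62520063), was 2.68-fold higher (13.25, 13.51 and 13.63 against 11.92, 12.06 and 12.21, adjusted p = 5.89e-13). These levels did not overlap between strains.

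Paip1, which couples the poly(A) tail to translation, was 4.90-fold higher in D2, the Wnt coreceptor Lrp6 4.57-fold, the centrosomal protein Sfi1 4.51-fold, the RNA-binding protein Rbm45 4.25-fold and the actin regulator Cap1 3.10-fold. The R8 levels of Lrp6 (7.525 to 7.895) were near background, so its 4.57-fold is a fitted value. A further 4 genes were detected on all 6 D2 arrays and on no R8 array. They were the nonclassical class I gene H2-Q5 (at least 2.06-fold), the formyl peptide receptor Fpr2 (at least 2.18-fold), the chemokine receptor Ccr6 (at least 1.69-fold) and the protease inhibitor Serpina1b (at least 1.67-fold), all at low levels, which is why their bounds are modest. Members of the H2-Q and Serpina1 families are near-identical copies, so which copy the probe read is uncertain. All 12 were called higher in R2 than in B6 as well.

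Outside the R2 interval, 79 genes were detected on every array of 1 strain and on none of the other, 57 in R8 only and 22 in D2 only. Thumpd1, Tmem87a, H2-Q5, Fpr2, Ccr6, Serpina1b and the other genes so detected above are among them. Such genes passed the detection filter only through the strain in which they were high and so had to differ. Their lack of overlap is therefore not a separate result. All 57 found in R8 only were also called lower in R2 than in B6, and 17 of the 22 found in D2 only were called higher in R2. A gene not tested in R2 and B6 is counted here as not called. One detected in R2 only must be detected on every R2 array to be tested, so 17 of 22 need not be a share of tested genes. By level, the leading ones not yet described were Casp9, the initiator caspase of the mitochondrial pathway of apoptosis (at least 10.3-fold lower in D2), Mettl14, a subunit of the RNA N6-adenosine methyltransferase (at least 7.89-fold lower), and Agpat5, an acyltransferase of phospholipid synthesis (at least 6.63-fold lower).

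Probes of the same gene did not always move together. Of 2124 genes with at least 2 tested probes, 543 had a called probe. In 138 of these every probe was called in 1 direction, in 375 only some were called, and in 30 genes probes were called in opposite directions. The antioxidant enzyme Prdx2 was an example, with a log2 difference of 0.42 at its brightest probe, -2.20 at another, and at the remaining probe detection on 0 of 6 D2 and 10 of 10 R8 arrays (at least 7.97-fold lower in D2), each called. Pdhb, a subunit of pyruvate dehydrogenase, had 0.26 and -0.33, the former lost without any of D2 replicates 2, 4 and 5 or R8 replicates 1, 2, 3, 5, 9 and 10. Where a probe was lower in D2 by more than 2-fold, 59 of 105 other probes of the same genes (56.2%) were also called lower and 11 were called higher. For probes higher in D2 by more than 2-fold, 18 of 29 (62.1%) were called higher and 0 lower. A difference at 1 probe is thus a difference in the signal of that probe and need not hold for the whole transcript. Probe sequences were not used here, and the part of strain variants beneath the probes was not tested.

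Genes at which B6 and D2 are known to carry different alleles were examined as a group, of which 5 of 14 on the array were tested. Besides Alad, which is duplicated in D2, Glo1, the methylglyoxal-detoxifying enzyme whose gene is also duplicated in that strain (chromosome 17, 30592861 to 30612659), was 1.94-fold higher in D2 (14.08, 14.21 and 14.26 against 13.08, 13.22 and 13.34). Myo5a, the motor protein mutated by the dilute coat colour allele of D2, was lower in D2 (-0.48, adjusted p = 2.88e-05), and so was Mpdz, a scaffold protein studied in alcohol withdrawal (-0.45, adjusted p = 0.000716). Mpdz overlapped between strains, and Myo5a did not. The respiratory supercomplex factor Cox7a2l had a difference of -0.18 (adjusted p = 0.0553) and was called without D2 replicate 2 or 5 or R8 replicate 10.

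Hdhd3, which lies next to Alad (62499054 to 62502200), was 2.92-fold higher in D2 (9.57, 9.86 and 10.15 against 8.12, 8.30 and 8.44). It was looked up after the values of Alad had been seen. Trappc12 (below) and Btbd9 were also looked up as neighbours after values had been seen. Btbd9 had overlapping levels, 9.78 to 9.96 in D2 and 9.63 to 10.46 in R8. It is left out of the later counts of named genes. Of 8371 pairs of neighbouring tested genes outside the R2 interval, 195 were both called in the same direction and 181 in opposite directions, so called neighbours did not generally move together. In 15 pairs both genes had fitted differences of more than 2-fold. Trappc12 and Adi1 on chromosome 12 were both higher in D2 (log2 differences 2.32 and 1.40), Sec24d and Mettl14 on chromosome 3 were both detected on no D2 array (at least 1.64-fold and 7.89-fold lower), and of the class II genes H2-Ab1 was higher in D2 and H2-Aa at least 1.27-fold lower. By chromosome, the share of genes called ranged from 8.6% on chromosome X (24 of 278) to 23.5% on chromosome 14 (66 of 281), leaving aside chromosome Y with 0 of 3.

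Inside the R8 segment, where both strains carry the D2 allele, 33 genes were on the array and 16 of them were tested. The outermost of the 33 span 170917594 to 172122332 of chromosome 1. Of the 16, 1 was called (6.2%, against 17.2% of all genes), and the median size of the differences was 0.06. The called gene was Adamts4, a matrix protease expressed by oligodendrocytes, at 10.60, 10.86 and 11.14 in D2 and 10.96, 11.10 and 11.31 in R8 (log2 difference -0.25, standard error 0.080, adjusted p = 0.0405). The strains overlapped, and the call was lost when any of 10 of the 16 arrays was left out (adjusted p = 0.0515 to 0.121). Those were D2 replicates 3 to 6 and R8 replicates 1, 2, 3, 6, 7 and 8. Normalized over all 32 arrays, the mean level was 10.89 in D2 and 11.14 in R8, against 9.96 in R2 and 9.77 in B6, which carry the B6 allele. The paper reports that QPCR in other mice gave a difference of Adamts4 between R8 and B6 opposite to that on the arrays. The levels here are thus those of the array probe.

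The other segment genes were close between D2 and R8. The immunoglobulin receptor Fcgr3 had a difference of -0.28 (standard error 0.108, adjusted p = 0.0846), with levels of 8.84 to 9.84 in D2 and 9.47 to 9.85 in R8. The complex II subunit Sdhc differed by -0.11 (adjusted p = 0.555), nicastrin (Ncstn), a subunit of gamma-secretase, by -0.12 (adjusted p = 0.383), the planar polarity gene Vangl2 by 0.06, the heme enzyme Ppox by 0.04, the coatomer subunit Copa by -0.02, the UFM1-conjugating enzyme Ufc1 by -0.01, the deubiquitinase Usp21 by -0.06, the amidase Nit1 by 0.05 and the galactosyltransferase B4galt3 by -0.06. Of the remaining 5, Alyref2 had the largest difference (0.23), and Dedd (-0.08), Arhgap30 (0.05), Pfdn2 (-0.02) and the E-box factor Usf1 (within 0.01 of 0 by both probes) were closer. None of these was called with all arrays. Without D2 replicate 6, Fcgr3 was called and Adamts4 was not. Fcer1g, the signalling chain of Fc receptors, was not tested because it was detected on 0 of 6 D2 and 0 of 10 R8 arrays. It was detected on 6 of 6 R2 and 10 of 10 B6 arrays, which carry the B6 allele.

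At the edge of the segment, where the labels do not settle which allele R8 carries, 3 genes were tested. The peroxisomal import factor Pex19 (172126755 to 172136497) was lower in D2 by both of its probes (log2 differences -0.28 and -0.48, adjusted p = 0.00145 and 0.0136), while Nos1ap and Olfml2b had differences of -0.03 and 0.12 and were not called.

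In the chromosome 1 segments that flank the R8 segment within the R2 interval, R8 carries the B6 allele and D2 its own, and 11 of 24 tested genes were called (45.8%, against 17.2% of all genes), 4 higher and 7 lower in D2. The count ranged from 8 to 12 when each array was left out in turn. On the proximal side, Tada1, a subunit of the SAGA and ATAC transcriptional coactivators (166379167 to 166393621), had levels of 10.35, 10.63 and 10.90 in D2 and 11.53, 11.66 and 11.84 in R8 (log2 difference -1.06, standard error 0.082, adjusted p = 4.65e-09). The cilium protein gene Ccdc181 had a difference of -0.55, the transport protein gene Sft2d2 one of -0.55 and the uridine kinase Uck2 one of -0.44, and in none of these did the strains overlap. All 3 probes of Uck2 were lower in D2. Rcsd1, an actin-capping regulator, had a difference of -0.43, and Nme7, a subunit of the gamma-tubulin ring complex, one of 0.30, although its other probes gave -0.20 and 0.12 and were not called. The thiamine transporter Slc19a2 (-0.18, adjusted p = 0.0493) and the brightest probe of the glutathione transferase Mgst3 (0.19, adjusted p = 0.0456) were near the threshold. The call of Slc19a2 held only without D2 replicate 1, 2 or 3 or R8 replicate 1 and was lost without any of the other 12 arrays. That of Mgst3 held only without D2 replicate 1 or 4 or R8 replicate 3, 6 or 7 and was lost without any of the other 11. The other probe of Mgst3 gave 0.52 (adjusted p = 0.000216). Ccdc190, Fam78b and Fmn2, named after their values were seen, were called at a dimmer probe only (0.36, 0.57 and -0.35). Without D2 replicate 1 the brightest probes of Ccdc190 and Fmn2 were called too.

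On the distal side, Kcnj9, a subunit of G-protein-gated inwardly rectifying potassium channels of neurons (172320508 to 172329322), had levels of 8.46, 8.73 and 9.26 in D2 and 7.04, 7.4 and 8.22 in R8. It was detected on all 6 D2 and none of the 10 R8 arrays and was at least 1.78-fold higher in D2. Because it needs all 6 D2 arrays to pass the detection filter, it dropped out of the test when any of them was left out. Ackr1, a receptor that binds chemokines without signalling (173331886 to 173333503), had levels of 11.70, 11.87 and 12.04 in D2 and 12.52, 12.60 and 12.79 in R8 (log2 difference -0.73, adjusted p = 3.1e-08). Cadm3, a synaptic adhesion molecule whose gene overlaps that of Ackr1, had a difference of 0.29 (adjusted p = 0.0246), with D2 replicate 1 at 11.20 far above the D2 median of 10.60. Nearly all of the Ackr1 span lies within that of Cadm3 (173331892 to 173368139). Which of these genes each probe read is therefore uncertain.

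In R2 and B6, which both carry the B6 allele over most of these flanks, most of these genes had small differences. Ccdc181 and Slc19a2, and Fmn2 on the distal side, lie at or across the outer edge of the R2 interval. The bounds given for that interval do not settle which allele R2 carries at these genes. R2 minus B6 was -0.13 for Tada1, 0.04 for Ccdc181, -0.11 for Sft2d2, 0.15 for Uck2, -0.08 for Ackr1, 0.01 for Nme7 and -0.03 for Cadm3. Of the genes called in the flanks, Uck2 (adjusted p = 0.0483, opposite in direction) and Rcsd1 (-0.21, adjusted p = 0.0346) passed there. The difference between the 2 comparisons was tested as an interaction over all 32 arrays, and 14 of 12351 probes passed (0.113%). Of these 14, 7 lie in the flanks. They were the probes of Tada1 (-0.93, adjusted p = 4.78e-06), Uck2 (-0.59), Ackr1 (-0.65), Ccdc181 (-0.59), Kcnj9, Sft2d2 (-0.44) and the dimmer probe of Mgst3 (0.60, adjusted p = 0.0133). Kcnj9 passed with a fitted value of 1.33 (adjusted p = 0.00148), but it was detected on only 0 of 10 R8, 1 of 6 R2 and 2 of 10 B6 arrays, so that value is taken against background. No interaction was called for the genes Rcsd1, Nme7, Slc19a2 or Cadm3 (adjusted p = 0.498 to 0.795).

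**Figure D2:**
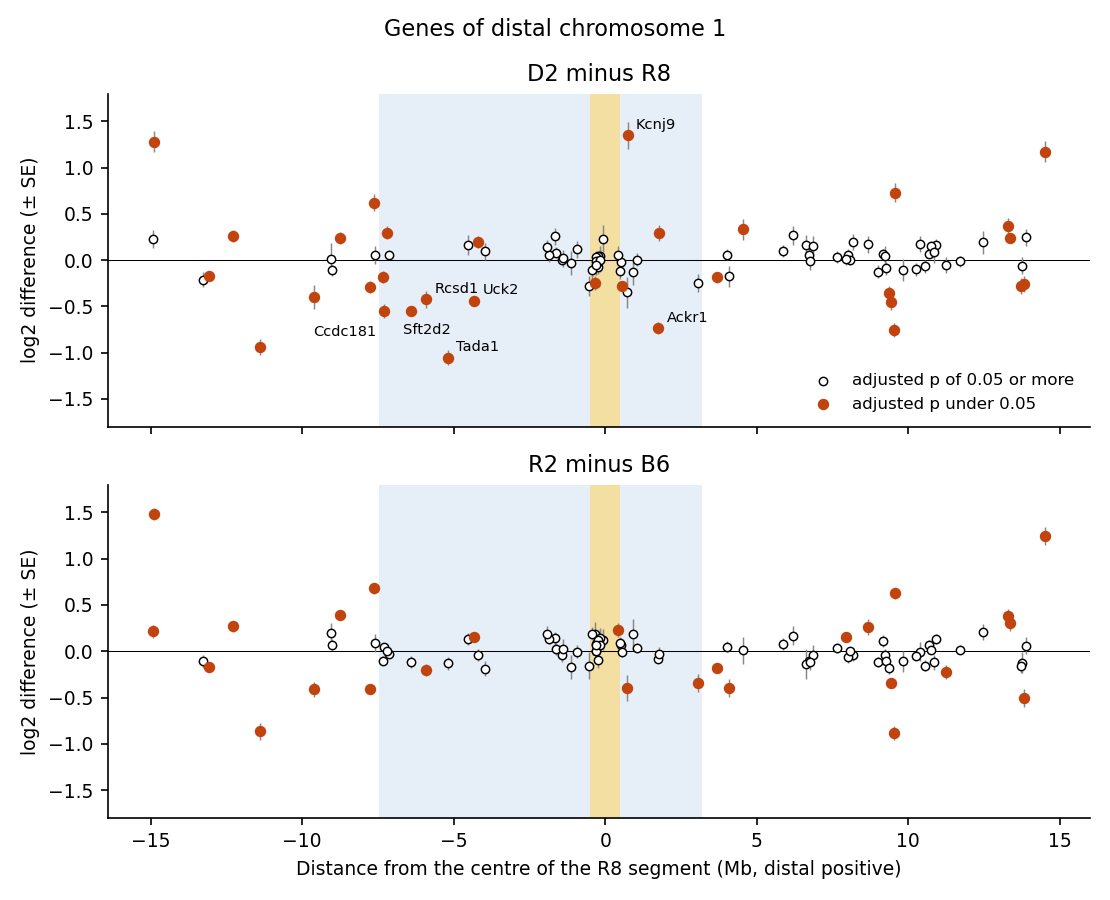
Log2 differences with standard errors of genes by their distance from the centre of the R8 segment, for D2 minus R8 in the upper panel and R2 minus B6 in the lower panel. Yellow marks the R8 segment, blue the flanks within the R2 interval, and filled points are called. Tada1, Ccdc181, Sft2d2 and Ackr1 are called in the upper panel and lie near 0 in the lower one, Kcnj9 was tested in the upper panel only, and beyond the blue band both panels have called genes.

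**Figure D3:**
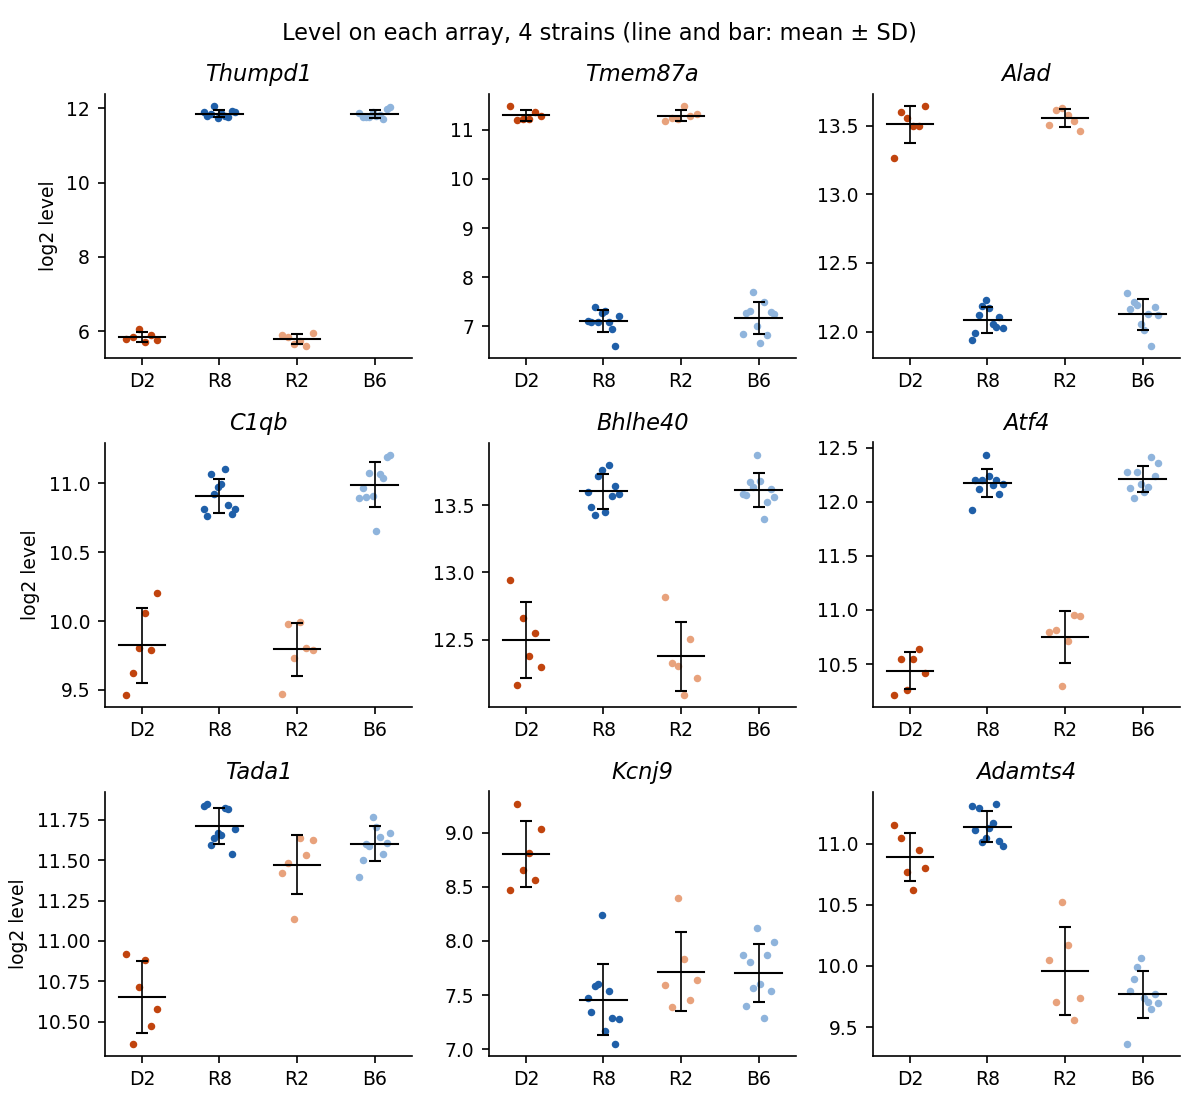
Log2 level on every array of the 4 strains (6 D2, 10 R8, 6 R2 and 10 B6 arrays, normalized together), with the mean and standard deviation of each strain. Thumpd1, Tmem87a, Alad, C1qb, Bhlhe40 and Atf4 separate by background, with D2 beside R2 and R8 beside B6. Tada1 and Kcnj9 set D2 apart from the other strains, and Adamts4 is high in D2 and R8, the strains with the D2 allele of the R8 segment.

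Gene lists of brain cell types, pathways and organelles were then counted, 42 in all. Members called are read beside the 17.2% of all genes called, 8.26% higher and 8.99% lower. Among lists with at least 7 tested genes, the highest shares were those of circadian clock genes (8 of 13 called), antigen presentation (8 of 14, but 3 when only probes detected on all 16 arrays were tested) and microglia (9 of 16). Of the 42 lists, 8 had no called member.

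**Figure D4:**
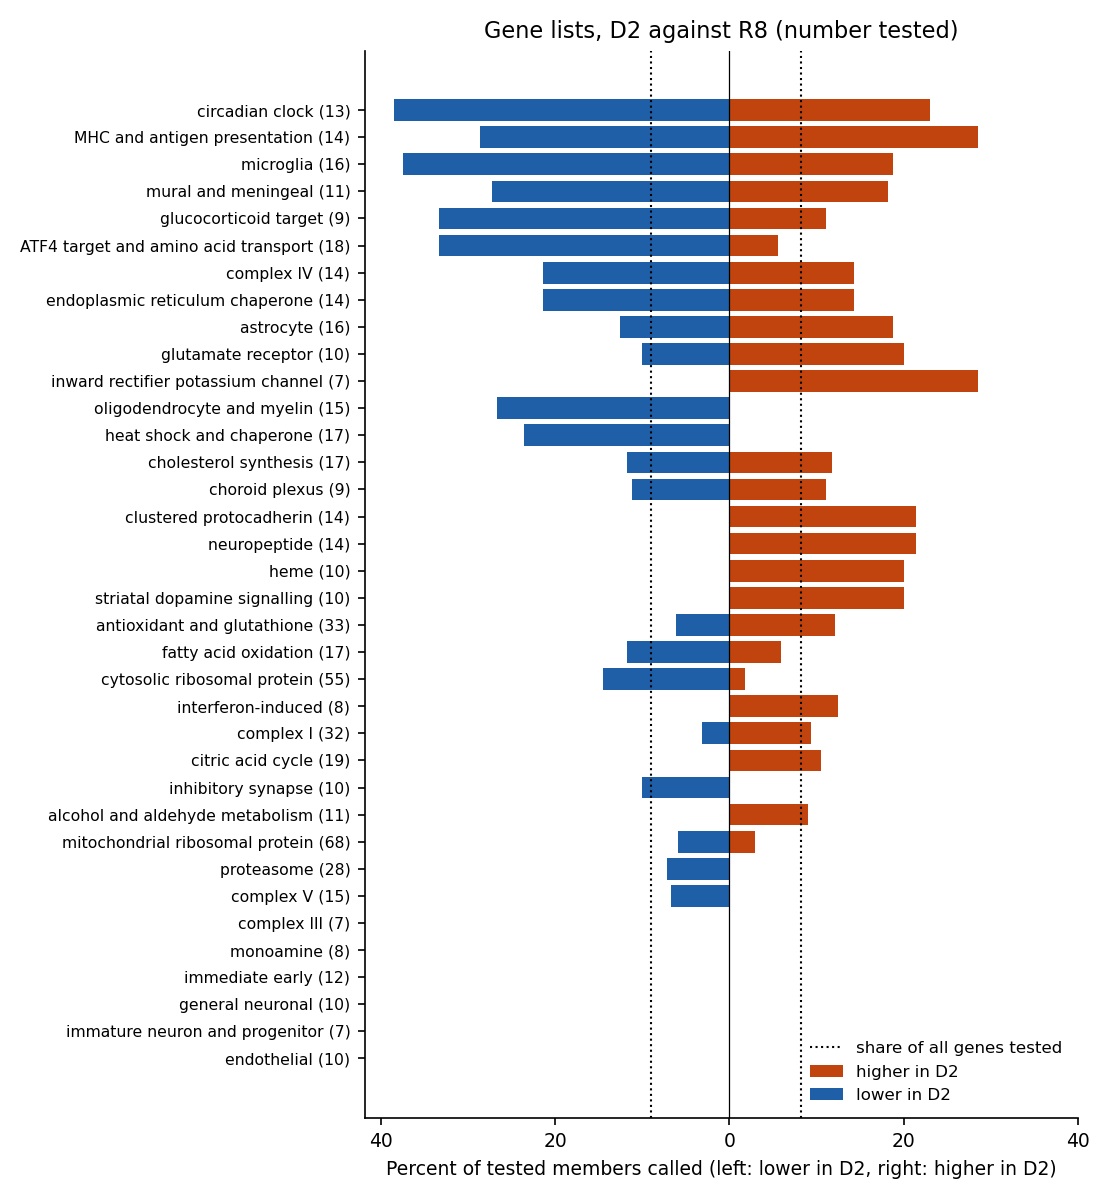
Percent of tested members called lower (left) and higher (right) in D2 for lists with at least 7 tested genes, the number tested in parentheses. Dotted lines mark the shares over all genes tested. Bars of several lists, the clock, antigen presentation and microglia lists among them, pass these lines on both sides, and lists at the foot of the plot, among them neuronal, endothelial and immediate early genes, have none called.

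The circadian clock is a transcriptional loop in which CLOCK and BMAL1 (encoded by Arntl) drive genes through E-box elements, and the PER proteins and others repress them. Of 13 clock genes tested, 3 were higher and 5 lower in D2. Bhlhe40, a repressor of the loop (chromosome 6, 108660629 to 108666925), was 2.15-fold higher in R8, with levels of 12.15, 12.44 and 12.93 in D2 and 13.41, 13.57 and 13.78 in R8 (log2 difference -1.10, standard error 0.096, adjusted p = 2.87e-08). Ciart, another repressor, had a difference of -0.67 (9.48, 9.92 and 10.23 against 10.21, 10.59 and 10.79), and its other probe gave -0.74. Both probes of Per2 were lower (-0.50 and -0.52). The output transcription factors Dbp and Tef had differences of -0.34 and -0.29. In the other direction, Per3 had 0.65 (8.88, 9.04 and 9.07 against 8.11, 8.30 and 8.70, with no overlap), Arntl 0.38 and Clock 0.17. The call of Clock was lost without D2 replicate 2 or 3 (adjusted p = 0.0549 and 0.0712). Without D2 replicate 1, 3 members were higher and 6 lower. Whether harvest time differed between the strains is not given, and its part was not tested. In R2 minus B6, Bhlhe40 (-1.24), Per2 (-0.81), Dbp (-0.37), Per3 (0.39) and Arntl (0.32) were also called, while Ciart (-0.32), Tef (-0.16) and Clock (0.01) were not.

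Promoters of 3 called clock genes are shown because the loop acts through the E-box. The canonical E-box, CACGTG, which reads the same on both strands, was searched in a fixed window around a start site, most of it upstream (RefSeq, GRCm38.p6, the B6 reference sequence). Where a gene had several windows, only the first listed entered the share over all genes. It was found in 7.2% of 27025 genes with such a window, and in 3 of the 11 tested clock genes with one. Ciart (chr3:95882179-95882478, minus strand) has 3 copies, Tef (chr15:81802423-81802722, plus strand) 1, and Per3 (chr4:151044616-151044915, minus strand) none. A further window of Tef (chr15:81811164-81811463, plus strand), not shown, also has 1 copy. Of the other called clock genes, Dbp (lower in D2), Arntl and Clock have none, and Bhlhe40 and Per2 had no window. The third gene with a copy is Per1, which was not called. The genes shown are examples, and a link between the motif and the direction of a difference was not tested. The E-box is in capitals and each sequence runs 5′ to 3′ on the strand of the gene.
Ciart promoter: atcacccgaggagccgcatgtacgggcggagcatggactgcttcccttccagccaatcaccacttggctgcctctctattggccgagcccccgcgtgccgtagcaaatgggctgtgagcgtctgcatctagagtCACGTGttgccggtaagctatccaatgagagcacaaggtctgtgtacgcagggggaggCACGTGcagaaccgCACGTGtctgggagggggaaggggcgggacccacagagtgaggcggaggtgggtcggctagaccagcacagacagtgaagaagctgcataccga
Tef promoter: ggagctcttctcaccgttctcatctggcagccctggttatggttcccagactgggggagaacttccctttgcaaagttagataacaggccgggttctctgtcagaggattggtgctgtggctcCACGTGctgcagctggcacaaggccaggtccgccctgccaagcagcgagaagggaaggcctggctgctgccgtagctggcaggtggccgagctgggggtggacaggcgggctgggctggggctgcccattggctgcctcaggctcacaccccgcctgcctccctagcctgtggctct
Per3 promoter: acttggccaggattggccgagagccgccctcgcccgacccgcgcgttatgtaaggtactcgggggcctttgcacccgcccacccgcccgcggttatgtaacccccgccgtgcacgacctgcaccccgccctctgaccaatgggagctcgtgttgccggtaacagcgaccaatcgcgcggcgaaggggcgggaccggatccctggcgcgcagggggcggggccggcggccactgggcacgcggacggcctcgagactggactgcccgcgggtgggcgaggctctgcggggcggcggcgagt
A match describes these letters only, and whether D2 carries the same sequence was not examined.

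**Figure D5:**
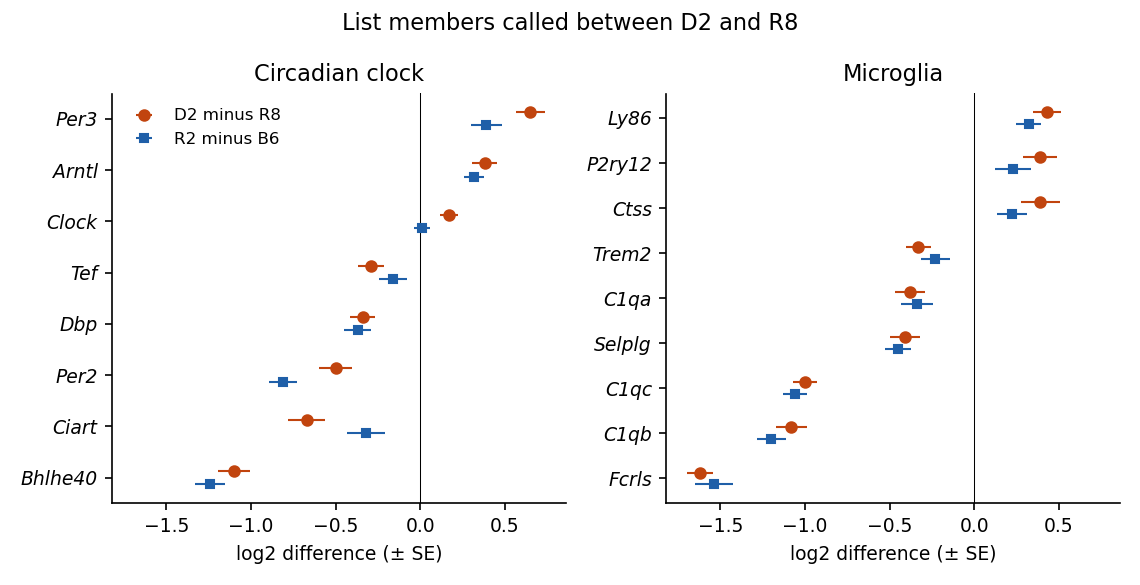
Log2 differences with standard errors of the clock and microglia list members called between D2 and R8, for D2 minus R8 (circles) and R2 minus B6 (squares). Bhlhe40, C1qb, C1qc and Fcrls lie far to the left in both comparisons.

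Microglia are the resident macrophages of brain, and 9 of 16 tested markers were called, 3 higher and 6 lower in D2. Fcrls, an Fc receptor-like protein characteristic of microglia, was 3.07-fold higher in R8 (7.88, 8.03 and 8.28 in D2 against 9.36, 9.70 and 9.84 in R8) and was detected on 4 of 6 D2 and 10 of 10 R8 arrays. The 3 chains of complement C1q, encoded side by side on chromosome 4, were all lower in D2. C1qb (136880126 to 136886200) had a difference of -1.08 (9.45, 9.78 and 10.19 against 10.74, 10.86 and 11.08), C1qc one of -1.0 and C1qa one of -0.38. The strains did not overlap for C1qb and C1qc. The adhesion ligand Selplg (-0.41) and the lipid receptor Trem2 (-0.33) were also lower. In contrast, the purinergic receptor P2ry12 (0.39), the Toll-like receptor partner Ly86 (0.43) and the protease Ctss (0.39) were higher. The call of Ctss was lost without D2 replicate 1 (adjusted p = 0.0574), and without that array 2 markers were higher and 7 lower. The mean log2 level over the 16 markers was 9.88 to 10.01 on the D2 arrays and 10.05 to 10.34 on the R8 arrays. The median difference over the list was -0.11, and Fcrls, C1qb and C1qc, with the largest differences among the called markers, weigh on that mean. The mean thus does not show a decrease shared by all markers. In whole-brain RNA, fewer cells of a type and less RNA per cell cannot be told apart, and neither was tested apart from differences of single genes or probes.

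Other cell types gave mixed counts. Of 15 oligodendrocyte and myelin genes, 4 were lower in D2 and none higher. They were the myelin genes Mal (-0.47, and -0.52 at its other probe), Cnp (-0.39), Mobp (-0.39) and Mog (-0.32), and the count fell to 2 without D2 replicate 3. At their brightest probes, R2 minus B6 was smaller, with -0.13 for Mal, -0.21 for Cnp, -0.28 for Mobp and -0.09 for Mog. No interaction was called at these probes (smallest adjusted p = 0.527, for Mal). The call of Mog was also lost without any of D2 replicates 2, 4 and 6 or R8 replicates 1, 3, 4, 5, 6, 7 and 8. The mean level of the list was 13.45 to 13.64 on D2 arrays and 13.46 to 13.85 on R8 arrays. Of 16 astrocyte genes, the intermediate filament Gfap (0.57), the glutamate transporter Slc1a2 (0.38) and the gap junction protein Gja1 (0.25) were higher, and the neurotensin receptor Ntsr2 (-1.05) and glutamine synthetase Glul (-0.80) were lower. Pdgfra, the receptor that marks oligodendrocyte precursors, was higher (0.34), and Enpp6, a marker of newly formed oligodendrocytes, was lower (-0.23). The median difference over the 6 genes of that list was -0.16. Of 11 mural and meningeal genes 5 were called, but 3 without D2 replicate 1 or 6. Among them the collagen gene Col1a2 was detected on 0 of 6 D2 and 10 of 10 R8 arrays (at least 1.74-fold lower in D2), whereas the matrix protein Dcn was higher in D2 by both probes (0.58 and 0.49). None of 10 endothelial genes was called, with a lowest difference of -0.49 and a median of -0.05, and their mean level was 10.57 to 10.77 on D2 arrays and 10.75 to 10.91 on R8 arrays. Of the red cell genes, Hbb-b2 was higher in D2 (3.71) and Hbb-bt lower (-1.98). The R8 levels of Hbb-b2 (6.935 to 8.514) were mostly near background, so 3.71 is a fitted value. The beta-globin genes are near-identical copies, so these 2 values are uncertain as to the gene.

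Antigen presentation depends on class I and class II molecules of the major histocompatibility complex, and 4 of its 14 tested genes were higher and 4 lower in D2. Several passed the detection filter only or mainly through the strain in which they were high and so had to differ, and 3 were called when detection on all 16 arrays was required. The class I gene H2-K1 was detected on all 6 D2 arrays and no R8 array (at least 2.02-fold higher), H2-Ab1 on 6 D2 and 1 of 10 R8 arrays (log2 difference 1.02), and H2-DMa, which loads peptides on class II, had a difference of 0.42. H2-Ke6, which encodes a steroid dehydrogenase rather than an antigen-presenting molecule, had 0.44. In the other direction, H2-Aa was detected on 0 D2 and 9 R8 arrays (at least 1.27-fold lower), H2-Q7 on 0 and 9 (at least 1.20-fold), the immunoproteasome subunit Psmb9 on 0 and 7 (at least 1.04-fold), and the class I light chain B2m had -0.43, with -0.35 at its other probe. Class I genes resemble each other closely, which makes the gene behind a probe uncertain. B2m lies on another chromosome, the 7 others on chromosome 17.

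ATF4 is the transcription factor of the amino acid response and integrated stress response. Atf4 itself (chromosome 15, 80255184 to 80257545) was 3.31-fold higher in R8, with levels of 10.20, 10.47 and 10.62 in D2 and 11.91, 12.16 and 12.42 in R8 (log2 difference -1.73, standard error 0.076, adjusted p = 5.51e-13). Of the 18 genes of the ATF4 list, itself included, 6 were lower and 1 higher in D2, and the same counts held without D2 replicate 1. The cystine transporter Slc7a11 (-0.68), the large neutral amino acid transporter Slc7a5 (-0.53), the serine synthesis enzyme Phgdh (-0.41), the cationic amino acid transporter Slc7a3 (-0.27) and asparagine synthetase (Asns, -0.20) were lower, and the mitochondrial serine enzyme Shmt2 (0.32) was higher. R2 minus B6 was similar for Atf4 (-1.46) and Slc7a11 (-0.81) but was 0.00 for Slc7a5 and 0.23 for Slc7a3 (adjusted p = 0.0334, opposite in direction), and for this pair the interaction passed (-0.53, adjusted p = 0.012, and -0.49, adjusted p = 0.0344). For Asns, with 0.04 in R2 minus B6 and its other probes at -0.05 and -0.09 in D2 minus R8, the interaction did not pass (adjusted p = 0.308).

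Of 17 cytosolic heat shock and chaperone genes, 4 were lower and none higher in D2, namely Hspb8 (-0.50), Hspa1a (-0.32), Cryab (-0.29) and Hspa2 (-0.21, and -0.46 at its other probe), but only 2 were called when D2 replicate 1, 2 or 6 or R8 replicate 5 or 6 was left out. The call of Cryab was lost without any of D2 replicates 1, 2, 3, 4 and 6 or R8 replicates 1, 3, 5, 6, 7 and 8. That of Hspa1a was lost without any of D2 replicates 1, 2 and 6 or R8 replicates 5, 6 and 9. Of 14 endoplasmic reticulum chaperone genes, Hyou1 (0.73) and the disulfide isomerase Pdia6 (0.55) were higher, and the kinase inhibitor Dnajc3 (-0.69), P4hb (-0.19) and Sel1l (-0.23) were lower. The call of P4hb was lost without D2 replicate 1, and that of Sel1l without any of D2 replicates 1, 4 and 6 or R8 replicates 1, 2, 5, 7, 8 and 9. Among 9 glucocorticoid target genes, Tsc22d3 was lower (-0.38 and -0.56 at its 2 probes) and the kinase Pdk4 higher (0.58), while Fkbp5 (-0.30) and Nfkbia (-0.32) were near the threshold. The call of Fkbp5 was lost without any of D2 replicates 1, 2 and 5 or R8 replicates 3, 4, 5, 8, 9 and 10, and that of Nfkbia without any of D2 replicates 1, 3, 4 and 6 or R8 replicates 1, 3, 4, 5, 6, 8, 9 and 10. The list's count fell from 4 to 2 without D2 replicate 1 or without R8 replicate 3, 4, 5, 8, 9 or 10.

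Of 32 complex I subunits, 3 were higher and 1 lower, the largest being Ndufb10 (0.66) and Ndufa12 (0.52), neither with overlap, and Ndufc2 (-0.26). None of the 3 complex II and 7 complex III subunits was called. In complex IV, the heart-type subunits Cox7a1 (-0.60) and Cox6a2 (-0.46) were lower and Cox5a (0.19) was higher among 5 called of 14, a count that fell to 3 without D2 replicate 1 or 3 or R8 replicate 3, 5 or 7. Atp5g2, a c-subunit gene of ATP synthase, was lower (-0.72), 1 of 15 of complex V (2 without R8 replicate 8). Of 17 cholesterol synthesis genes, Msmo1, the C4-methylsterol oxidase, was 3.47-fold higher in R8 (11.28, 11.57 and 11.76 in D2 against 13.20, 13.31 and 13.51 in R8), Cyp51 had -0.31, and Nsdhl, which acts just after Msmo1, was higher in D2 by all 3 probes (0.39, 0.46 and 0.44). Acaa1a, a thiolase of peroxisomal fatty acid oxidation, had -0.81 and carnitine acetyltransferase (Crat) 0.37. Of 33 antioxidant and glutathione genes, 4 were higher and 2 lower. The higher ones were Glo1 and, at their brightest probes, Prdx2 and Mgst3 as above, and catalase (Cat, 0.26), whose call was lost without any of D2 replicates 3 and 4 or R8 replicates 3, 4, 5, 6, 8, 9 and 10. The lower ones were the glutamate-cysteine ligase modifier Gclm (-0.39) and the glutathione transferase Gsto1 (-0.35).

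In the proteasome 2 of 28 genes were called, both catalytic subunits and both lower in D2, Psmb6 as above and Psmb5 (-1.14, 10.84, 10.91 and 11.16 against 11.76, 12.04 and 12.42). Of 55 cytosolic ribosomal protein genes, 8 were lower and 1 higher (16.4% in all, close to the 17.2% of all genes), with Rps15a (-1.10), Rps3a1 (-0.89) and Rps9 (-0.50 and -0.33 at its 2 probes) leading. Ribosomal protein genes have many processed pseudogenes, so their signals are uncertain as to the gene. Rpl29 had -0.28 at its brightest probe, and its other probe was detected on 0 of 6 D2 and 10 of 10 R8 arrays (at least 4.96-fold lower). Of 68 mitochondrial ribosomal protein genes, 6 were called. Mrpl48 was lower by all 3 probes (-1.35, -1.38 and -0.84), Mrpl55 had -1.12, Mrps27 was detected on 0 of 6 D2 and 10 of 10 R8 arrays (at least 2.49-fold lower), and Mrpl3 had 0.50 at its brightest probe and -0.17 at the other, which was not called.

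Of 6 GABA-A receptor subunits, Gabrb2 was called (0.63, and 0.25, not called, at its other probe), and of 10 inhibitory synapse genes the vesicular GABA transporter Slc32a1 was (-0.38), each with no overlap of the strains. Among 10 glutamate receptor genes, all 3 probes of the AMPA subunit Gria1 were higher in D2 (0.34, 0.40 and 0.45), and the kainate subunit Grik4 was lower (-0.76), detected on 1 of 6 D2 and 10 of 10 R8 arrays. Besides Kcnj9, the inward rectifier Kcnj16 was higher (0.33). The peptide precursors Pmch (0.53), Vip (0.38) and Pdyn (0.31) were higher, 3 of 14 in the neuropeptide list, and among the clustered protocadherins, neuronal adhesion molecules, 3 of 14 were higher and none lower, led by Pcdhb3 (1.13). Some of these small counts changed with 1 array. The neuropeptide count was 5 without R8 replicate 2, the GABA-A receptor count 2 without D2 replicate 4 or R8 replicate 1, the inhibitory synapse count 2 without D2 replicate 2, and the inward rectifier count 1 without any D2 array, since Kcnj9 was then not tested. Of the lists not yet given, 2 of 6 precursor and new oligodendrocyte genes, 2 of 9 choroid plexus, 1 of 8 interferon-induced, 2 of 10 striatal, 2 of 19 citric acid cycle, 1 of 11 alcohol and aldehyde and 2 of 10 heme genes were called. The precursor count was 1 without any of D2 replicates 2 to 6 or R8 replicates 1, 3, 5, 7 and 8. The interferon count was 0 without any of D2 replicates 3 to 5 or R8 replicates 1, 4, 5, 6, 8, 9 and 10, and the alcohol and aldehyde count was 0 without any of D2 replicates 3 and 4 or R8 replicates 3, 4, 5, 6, 8, 9 and 10. The striatal count was 1 without D2 replicate 1, 3, 4 or 6, and the heme count 1 without D2 replicate 6. The citric acid cycle count was 0 without D2 replicate 2 and 1 without any of D2 replicates 4 to 6 or R8 replicates 1, 2, 3, 5, 9 and 10. No member was called among 10 general neuronal, 7 immature neuron, 12 immediate early and 8 monoamine genes.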

How the data were processed

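Illumina Mouse Ref8 v2 arrays of 6 D2 and 10 R8 mice were analysed, with 10 B6 and 6 R2 arrays for context, all grouped by their labels. The deposited intensity of each of 25697 probes is the average bead signal, exported by the authors without normalization. Whether background was subtracted is not stated, and the methods say that outlier samples were removed beforehand. The deposited detection p-value of each probe is the scanner software's. A further table of intensity values, which the authors normalized by quantiles with lumi on a linear scale, served as an alternative.

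In limma 3.58.1 (R 4.3.3), neqc estimated background from the detection p-values, quantile-normalized the 16 arrays and gave log2 levels (offset 16). Probes detected at p under 0.01 on at least 6 arrays were fitted by lmFit with eBayes, and p-values were adjusted by Benjamini-Hochberg across all 11976. R2 minus B6 was fitted on its own arrays in the same way, and the interaction on all 32. A strain detected on no array has only a bound, computed against the higher of the lowest detected signal of each array and the probe's own. Standard errors are those of the fit, and each array is 1 animal.

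Symbols come from the platform annotation and positions from RefSeq GRCm38.p6 (23971 probes placed, 1719 without a name). A gene is represented by its tested probe with the highest mean level. Named genes were the 12 with the smallest p in each direction outside the R2 interval, genes of the R8 segment, called genes of the flanks, genes with known variants, up to 4 members of each list by p, and up to 8 genes by level that were detected in 1 strain only. Further called members of lists and the other probes of named genes were added after their values were seen. The members and the gene lists were chosen with earlier results of these data known, so the lists are described by counts without a test.

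The fit was tested on simulated data for D2 minus R8 with 11976 probes. It recovered 89 of 100 probes changed by 0.6 on the log2 scale and 38 of 100 changed by 0.3, and called 9 unchanged probes. Far fewer probes were changed there than were called in the data. The simulated noise was independent between probes, with no outlying array and no normalization step. These counts therefore need not hold for the data. Alternatives changed the background correction, normalization, detection filter, variance model, weights, blocks, arrays, test and threshold.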

Additional observations from a re-analysis of the deposited data

Results flagged for a closer look

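The D2 minus R8 difference differed from that of R2 minus B6, by the interaction over all 32 arrays, at 14 of 12351 probes. In the chromosome 1 flanks these were Ackr1 (-0.65), Tada1 (-0.93), Uck2 (-0.59), Ccdc181 (-0.59), Kcnj9 (1.33, with R8, R2 and B6 at or near background), Sft2d2 (-0.44) and 1 probe of Mgst3 (0.60). Elsewhere they were Slc7a5 (-0.53), Slc7a3 (-0.49), both probes of the X-linked gene Bex4 (-0.65 and -0.43), Bok on chromosome 1 outside the R2 interval (-0.54), and a pair of probes without a gene name (0.97 for ILMN_1256907 and -0.37 for ILMN_2642681).

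In 28 of 370 groups of arrays examined (each named gene in each strain), the highest or lowest array lay far from the rest, measured as its gap to the nearest array over the range of the group. Chance gives about 1 in 20. D2 replicate 1 was that array in 11 of the 28. It was highest for Cadm3 (0.772), Cat (0.847) and Stat2 (0.716), and lowest for Cox5b (0.705), Fpr2 (0.816), Grik4 (0.789), Mrpl3 (0.743), P4hb (0.792), Pdyn (0.644), Rps2 (0.667) and Sfi1 (0.797). Other D2 arrays stood out for Alas1 (0.690), Mobp (0.662) and Mpdz (0.777). Single R8 arrays stood out for Arhgap30 (0.514), B4galt3 (0.481), Cap1 (0.586), Ccr6 (0.494), Dbp (0.468), Fmn2 (0.558), H2-Aa (0.576), H2-Q5 (0.498), Hbb-bt (0.595), Kcnj9 (0.533, replicate 5 highest at 8.22), Pcdhb7 (0.536), Pdhb (0.550), Pex19 (0.590) and Thumpd1 (0.480).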

How the results depend on the processing

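Over 13 other settings and 16 fits that each left out 1 array, the number of probes at an adjusted p under 0.05 ranged between 1610 (detected on all 16 arrays) and 2361 (all 32 arrays fitted together). Leaving out 1 array gave 1789 to 1944 called probes, 806 to 919 higher and 983 to 1041 lower in D2, 8 to 12 flanking genes and 107 to 123 list members (126 with all arrays). At an adjusted p under 0.01, 1358 probes passed, and 585 were higher in D2 in place of 958. The single called gene of the R8 segment gave a count of 0 with median scaling, with all 32 arrays, without a detection filter, with blocks of 8 array numbers, with the replicate block and in a t-test on the deposited normalized intensities after adjustment, and 0 to 1 with 1 array left out. That gene was Adamts4, except without D2 replicate 6, when it was Fcgr3. Replicate numbers of the labels do not pair animals (correlations of same-numbered deviations from -0.202 to 0.423). With them as a replicate block over 12 arrays, 1661 probes were called and 1533 of the 2009 calls were kept. Blocks of 8 array numbers gave 1647 called probes and kept 1566 of the 2009 calls. Cadm3, Gja1, Cox5a, Mobp, Ctss and Slc7a3 were among the named genes that lost their calls with those blocks. With the deposited table's columns split into blocks of 8, an alternative chosen after seeing the data, 1860 were called, and 1927 of the 2009 calls had the same direction within each of the 4 blocks. Of 164 called named genes, 122 were called in the same direction under every setting that tested them. With the probe of smallest p in place of the brightest, 2 reversed, Pdhb to -0.33 and Prdx2 to -3.84 (a fitted value, since D2 was not above background there), which is a choice between probes that disagree. Genes detected in D2 only are not tested once a D2 array is left out, and small differences near background are limited by the signal.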
